A study of Mus musculus with 8 samples.

Results

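The genes described here encode the long filament-associated proteins of the muscle sarcomere. They are titin (Ttn), nebulin (Neb), obscurin-like 1 (Obsl1), the 3 myomesins of the M-band (Myom1, Myom2 and Myom3), and the myosin-binding proteins Mybpc1, Mybpc2 and Mybph. They were chosen by gene symbol, and all 9 were found among the 23336 gene rows of the count table and passed the filter on low counts, as did 15241 genes in all. Gene expression was measured by sequencing of total RNA, depleted of ribosomal RNA, from skeletal muscle of C57BL/6 mice labelled female at postnatal day 2. There were 4 libraries from ΔDMR1-U2 mice, which carry a deletion at the imprinted Igf2 locus, and 4 from wild-type mice, numbered 1A, 1B, 2 and 3 in each genotype. The sources used here do not state which muscles were taken, from which parent the deletion was inherited, or what the letters in 1A and 1B stand for. Because the tissue was sequenced whole, fewer muscle fibres and less RNA per fibre cannot be told apart in any value given here.

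As background, the sarcomere is held in register by proteins that span it. Titin runs from the Z-disc to the M-band and gives the fibre its elasticity and a template for the thick filament, while nebulin runs along the actin filament and stabilises it. At the M-band, myomesins cross-link neighbouring thick filaments and obscurin-like 1 binds both titin and myomesin. Myosin-binding proteins C sit on the thick filament and tune cross-bridge cycling, with Mybpc1 known as the slow skeletal form and Mybpc2 as the fast form, and Mybph is a shorter relative of both.

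Library totals were 16781493 to 20060129 counts in ΔDMR1-U2 muscle, against 16084413 to 26913636 counts in wild-type muscle. All 10 skeletal muscle fibre markers of a list chosen by known role were detected, with a summed level of 61244 to 65978 CPM (counts rescaled by library size) in ΔDMR1-U2 libraries, against 65964 to 79756 CPM in wild-type libraries. Of 9 cardiomyocyte markers, 5 passed the filter on low counts. Over all 8 libraries, Tnnt2 had 22313 counts and Myh6 5638, while the atrial light chain gene Myl7 had 9. Xist, the RNA that coats the inactive X chromosome in females, had 49 counts in ΔDMR1-U2 library 1A, against 25503 to 36611 counts in the other ΔDMR1-U2 libraries and 21122 to 42121 in the wild-type libraries. This low level goes against the female label of ΔDMR1-U2 library 1A, and the reason was not tested. On the first principal component, which held 40.6% of the variance, ΔDMR1-U2 library 1B scored -37.5, while the remaining ΔDMR1-U2 libraries scored -15.2 to 1.06 and the wild-type libraries 9.31 to 19.5. Igf2as, an antisense gene of the locus that carries the deletion, had 5.55 to 6.18 CPM in the 4 ΔDMR1-U2 libraries, against 54.4 to 72.2 CPM in the wild-type libraries, so 1A and 1B matched their genotype. The fold changes and count ratios of the 9 genes are also given without both of them, beside the value or under the dependence on processing. Nothing in the sources used here says that the 4 libraries of a genotype came from separate animals, so p-values measure the spread between these libraries.

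None of the 9 genes was called higher or lower in ΔDMR1-U2 muscle. With edgeR's quasi-likelihood test and Benjamini-Hochberg adjustment over all tested genes, 0 of 9 passed an adjusted p of 0.05, where 1.13% of all tested genes did, 0.512% higher and 0.617% lower. Unadjusted, 1 of 9, Mybph, had a p under 0.05 in edgeR, where 21.3% of all tested genes did. DESeq2 called 0 of 9, against 6.15% of the genes to which it gave an adjusted p. It put 3 of 9 (Ttn, Myom3 and Mybph) under 0.05 unadjusted, against 15.6% of the 20178 genes to which it gave a p. Those 20178 genes include low-count genes that the edgeR filter removed. The ranges of the 2 genotypes overlapped for all 9 genes, while they did not overlap for 12.8% of all tested genes. The median log2 fold change of ΔDMR1-U2 over wild-type was -0.11 over the 9 genes and 0.00 over all tested genes. A value below 0 was found for 8 of the 9 genes, Myom2 being the exception, and for 50.2% of all tested genes. This direction was not particular to the 9 genes. It was found for 10 of the 10 skeletal muscle fibre markers, whose median was -0.25. Of the partner genes described below, it was found for 13 of 15 thick filament myosin genes and 9 of 17 M-band and titin kinase partners.

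**Figure D1:**
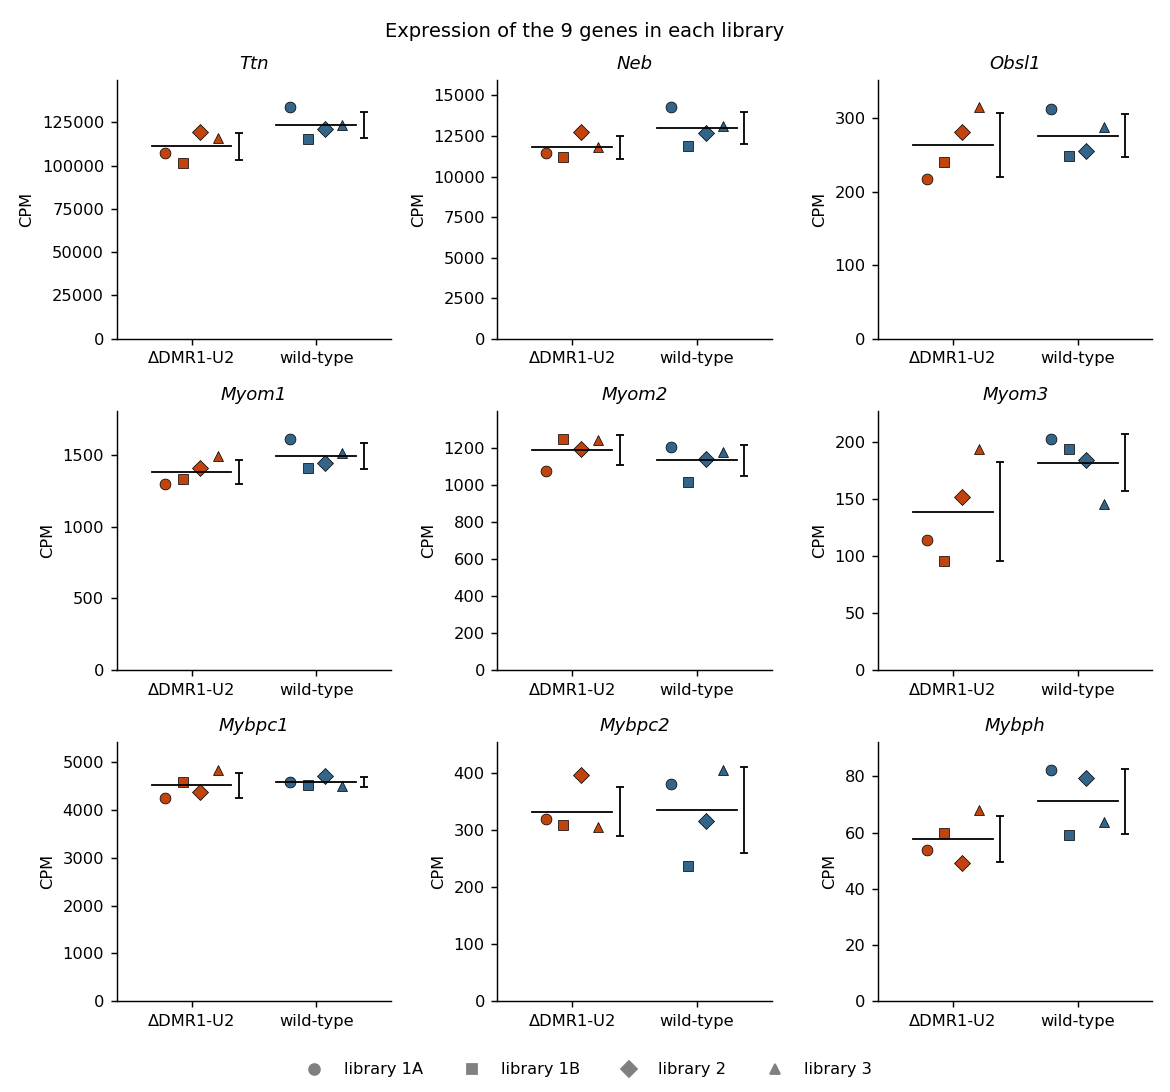
Expression of the 9 genes in CPM (vertical axes, each starting at 0) in the 4 ΔDMR1-U2 libraries (left) and the 4 wild-type libraries (right) of each panel, with the marker shape giving the library number, the line the mean and the bar beside it the SD. The groups overlap in every panel, and the widest spread is that of Myom3, at 95.8 to 194 CPM in ΔDMR1-U2, against 146 to 203 CPM in wild-type.

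The start sites of 4 of these genes are shown because they stand for the ends of the range found here: Ttn for the highest count, Mybpc1 for the steadiest level, and Myom3 and Mybph for the fold changes furthest from 0, neither of them called. Each line gives the 250 bases before the RefSeq start site in the GRCm38.p6 build, 5′ to 3′ on the strand of the gene, at chr2:76982548-76982797 (minus), chr10:88605153-88605402 (minus), chr4:135759465-135759714 (plus) and chr1:134193198-134193447 (plus). Windows were matched by symbol for 7 of the 9 genes; Neb and Myom2 are named only. Capitals mark matches to the MEF2 motif, to the E-box CAGCTG and, on either strand, to the M-CAT motif CATTCC, the first bound by MEF2 factors, the second by myogenic factors such as MyoD and the third by TEAD factors; TATAAA was also searched on the strand of the gene and was not found in any of the 4.
Ttn: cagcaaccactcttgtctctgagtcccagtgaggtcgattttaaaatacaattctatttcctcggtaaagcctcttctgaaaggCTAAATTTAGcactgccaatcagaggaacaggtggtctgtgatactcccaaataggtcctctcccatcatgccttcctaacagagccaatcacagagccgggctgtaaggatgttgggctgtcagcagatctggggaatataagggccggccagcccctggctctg
Mybpc1: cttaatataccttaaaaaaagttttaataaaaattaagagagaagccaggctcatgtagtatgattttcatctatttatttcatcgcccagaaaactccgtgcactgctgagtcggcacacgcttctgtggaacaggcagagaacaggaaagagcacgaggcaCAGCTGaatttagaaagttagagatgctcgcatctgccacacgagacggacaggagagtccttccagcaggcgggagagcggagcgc
Myom3: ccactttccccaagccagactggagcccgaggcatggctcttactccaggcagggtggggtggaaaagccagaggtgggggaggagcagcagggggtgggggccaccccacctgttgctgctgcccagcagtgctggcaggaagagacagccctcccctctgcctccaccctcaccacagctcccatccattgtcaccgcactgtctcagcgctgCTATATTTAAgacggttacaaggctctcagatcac
Mybph: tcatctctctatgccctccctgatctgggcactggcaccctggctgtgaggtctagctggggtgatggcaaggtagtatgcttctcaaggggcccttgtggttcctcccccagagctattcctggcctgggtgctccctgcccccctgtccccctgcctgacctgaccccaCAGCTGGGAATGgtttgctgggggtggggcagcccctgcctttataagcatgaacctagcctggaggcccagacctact
The Ttn and Myom3 windows each hold 1 match to the MEF2 motif, found in 2.92% of the 32851 promoter windows of this length. The Mybpc1 and Mybph windows each hold 1 CAGCTG, found in 13% of windows, and in Mybph it is followed directly by the complement of CATTCC, found on either strand in 12.6%. Of the matched windows not shown, that of Myom1 held none of the motifs searched, that of Obsl1 held 2 CAGCTG and that of Mybpc2 held 1 M-CAT match. All these matches describe the sequence and were not tested for binding.

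Titin, the largest gene of the group, lies on chromosome 2 from 76703980 to 76982547 on the minus strand in the mm10 build, with 116825 bases of merged exon sequence. Its level was 107647, 101712, 119232 and 116046 CPM in ΔDMR1-U2 libraries 1A, 1B, 2 and 3, against 133670, 115214, 121134 and 123763 CPM in the wild-type libraries with those numbers. ΔDMR1-U2 libraries 1A and 1B were below every wild-type library, and ΔDMR1-U2 libraries 2 and 3 lay within the wild-type range. The means were 111159 ± 7972 CPM in ΔDMR1-U2 muscle, against 123446 ± 7697 CPM in wild-type muscle (SD, n = 4 each). The log2 fold change was -0.15, with an SE of 0.10 and a 95% interval of -0.37 to 0.07 (adjusted p = 0.403, edgeR). On a linear scale that interval runs from -22.7% to 4.86%. Without ΔDMR1-U2 libraries 1A and 1B together, the log2 fold change of Ttn was -0.07. The summed level of the 10 muscle fibre markers was 61244, 63002, 65978 and 63921 CPM in ΔDMR1-U2 libraries 1A, 1B, 2 and 3, against 79756, 65964, 67484 and 77374 CPM in the wild-type libraries. Like Ttn, it was highest in wild-type library 1A, and its part in the value of Ttn was not tested.

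Nebulin, also on chromosome 2 (52136647 to 52378474, minus strand), moved almost in step with titin. Its level was 11440, 11181, 12767 and 11809 CPM in ΔDMR1-U2 libraries 1A, 1B, 2 and 3, against 14259, 11886, 12680 and 13142 CPM in the wild-type libraries. In ΔDMR1-U2, 3 of 4 libraries were below the lowest wild-type library, and library 2 was inside the wild-type range. The log2 fold change was -0.14, with an SE of 0.09 and a 95% interval of -0.33 to 0.05 (adjusted p = 0.383, edgeR). For Neb it was -0.08 without ΔDMR1-U2 libraries 1A and 1B and -0.09 without wild-type library 1A. The ratio of Neb to Ttn counts within a library, which does not depend on how libraries are scaled, was 0.106 ± 0.00338 in ΔDMR1-U2, against 0.105 ± 0.00159 in wild-type (SD, n = 4 each; exact two-sided permutation test p = 0.543, 0.679 after Benjamini-Hochberg adjustment over the 5 ratios tested). Centred on their own means, the log2 profiles of Neb and Ttn over the 8 libraries differed by a root mean square of 0.032, the smallest of any pair among the 9 genes, against a spread of 0.113 for Ttn itself. Ttn and Myom1 differed by 0.049 on the same measure, and Myom3 and Mybpc2 differed most, by 0.461. Closeness to Ttn was not particular to Neb, as Fam53b and Wdr8, outside the group, differed from it by 0.028 and 0.032.

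**Figure D2:**
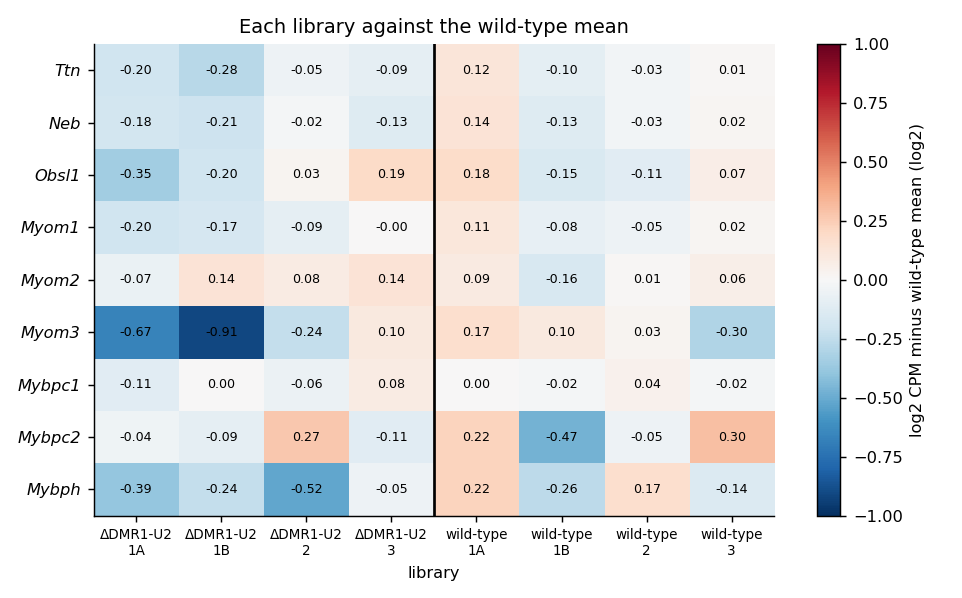
Log2 CPM of each gene (rows) in each library (columns, ΔDMR1-U2 to the left of the vertical line and wild-type to its right) minus the mean log2 CPM of the 4 wild-type libraries. Ttn and Neb have near-equal values in every column, while Myom3 is at -0.67 and -0.91 in ΔDMR1-U2 libraries 1A and 1B and at 0.10 in ΔDMR1-U2 library 3.

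Because transcript length sets the count that 1 molecule gives, levels of different genes were compared per kb of merged exon sequence. Mybpc1 and Ttn were the most abundant, at 997 ± 56.1 and 952 ± 68.2 CPM per kb in ΔDMR1-U2, against 1012 ± 21.7 and 1057 ± 65.9 CPM per kb in wild-type (SD, n = 4 each). These 2 genes changed places between libraries, Mybpc1 being the higher in 5 of 8. Nebulin followed at 444 ± 26.1 CPM per kb in ΔDMR1-U2, against 489 ± 37.3 in wild-type. Myom1 and Myom2 stood near each other, at 132 and 134 CPM per kb in ΔDMR1-U2, against 143 and 128 in wild-type, with Myom1 higher in 7 of 8 libraries and ranges that overlapped. Mybpc2 had 92.2 CPM per kb in ΔDMR1-U2, against 92.9 in wild-type. The lowest were Obsl1, Mybph and Myom3, at 31.1, 24.8 and 23.0 CPM per kb in ΔDMR1-U2, against 32.7, 30.6 and 30.1 in wild-type, whose ranges over the 8 libraries overlapped. From Ttn to Neb, from Neb to Myom1, from Myom2 to Mybpc2 and from Mybpc2 to Obsl1, the ranges over the 8 libraries did not overlap. Those of Myom2 and Mybpc2 came closest, with 114 CPM per kb for Myom2 at its lowest, against 112 for Mybpc2 at its highest. The merged exons include all annotated isoforms, so a gene whose long isoforms are not used in newborn muscle has a level per kb that is too low. They also include bases shared with other genes, 1162 of 2329 for Mybph, and how reads on these were counted is not known.

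The M-band genes did not share a direction, and none of them passed the test. Myom1, on chromosome 17 (71002633 to 71126856, plus strand), had 1302, 1332, 1409 and 1496 CPM in ΔDMR1-U2 libraries 1A, 1B, 2 and 3, against 1617, 1413, 1447 and 1519 CPM in the wild-type libraries. In ΔDMR1-U2, 3 of 4 libraries were below the lowest wild-type library, and the log2 fold change was -0.11 with a 95% interval of -0.28 to 0.05 (adjusted p = 0.408, edgeR). It was -0.05 without ΔDMR1-U2 libraries 1A and 1B. Myom2, or M-protein, on chromosome 8 (15057653 to 15133541, plus strand), had 1072, 1248, 1191 and 1241 CPM in ΔDMR1-U2, against 1201, 1013, 1137 and 1175 CPM in wild-type. Here 2 of 4 ΔDMR1-U2 libraries were above the highest wild-type library, and the log2 fold change was 0.07 with a 95% interval of -0.11 to 0.25 (adjusted p = 0.65, edgeR). Without ΔDMR1-U2 libraries 1A and 1B it was 0.10.

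Set against each other within a library, Myom2 and Myom1 gave the one ratio of the 5 whose groups did not overlap. Among single genes, the groups did not overlap for 12.8% of all tested genes, and the share over other gene ratios was not computed. The count ratio of Myom2 to Myom1 was 0.823, 0.937, 0.845 and 0.83 in ΔDMR1-U2 libraries 1A, 1B, 2 and 3, against 0.743, 0.717, 0.786 and 0.774 in the wild-type libraries. All 4 ΔDMR1-U2 libraries were above all 4 wild-type libraries, with means of 0.859 ± 0.0531 in ΔDMR1-U2, against 0.755 ± 0.031 in wild-type (SD, n = 4 each) and a log2 difference of 0.18. The exact two-sided permutation test gave p = 0.0286, the smallest that 4 against 4 libraries allow, and 0.143 after adjustment over the 5 ratios. The difference did not pass 0.05, but a single ratio at that smallest p cannot pass after this adjustment. The adjusted value therefore does not decide whether the ratio differs. The log2 difference was 0.14 to 0.20 when 1 library was left out and 0.15 without ΔDMR1-U2 libraries 1A and 1B.

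**Figure D3:**
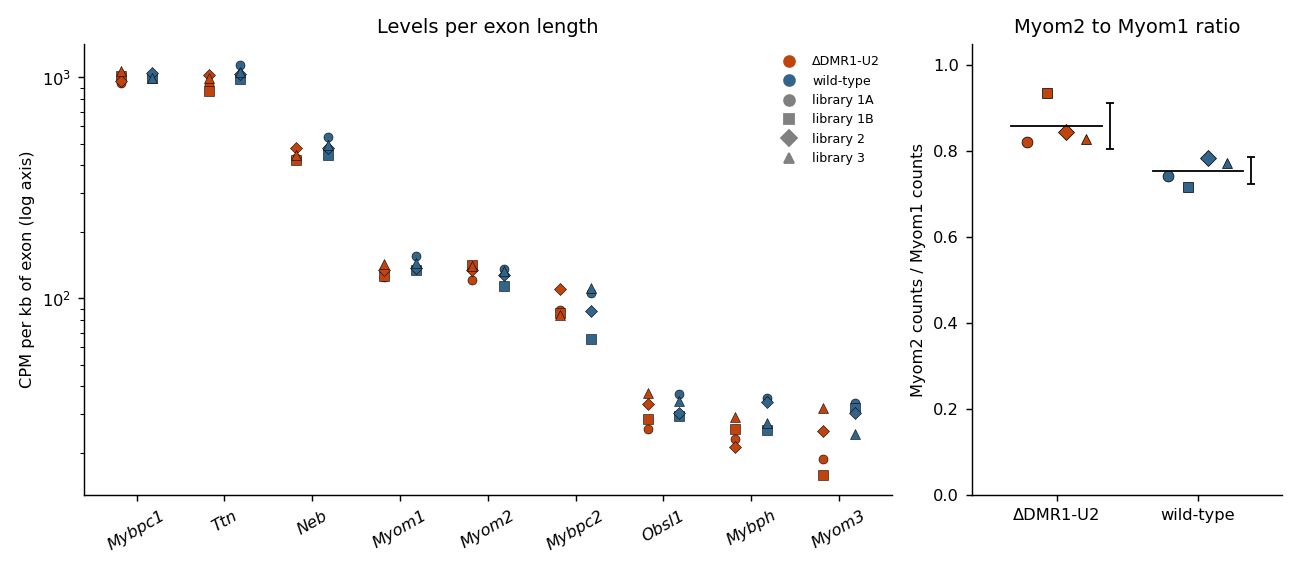
Left, CPM per kb of merged exon (log axis) of the 9 genes in order of their mean, with ΔDMR1-U2 libraries to the left and wild-type libraries to the right at each gene; the values run from about those of Mybpc1 and Ttn down to those of Mybph and Myom3. Right, counts of Myom2 over counts of Myom1 in each library, with the mean (line) and SD (bar), at 0.823 to 0.937 in ΔDMR1-U2, against 0.717 to 0.786 in wild-type.

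Myom3, on chromosome 4 (135759715 to 135815564, plus strand), had the largest fold change and the widest spread. Its level was 114, 95.8, 152 and 194 CPM in ΔDMR1-U2 libraries 1A, 1B, 2 and 3, against 203, 194, 184 and 146 CPM in the wild-type libraries. ΔDMR1-U2 libraries 1A and 1B were below every wild-type library, and ΔDMR1-U2 libraries 2 and 3 were above wild-type library 3, the lowest of its genotype. The log2 fold change was -0.39, with an SE of 0.19 and a 95% interval of -0.81 to 0.03 (adjusted p = 0.266, edgeR). It was -0.25 without ΔDMR1-U2 library 1B, -0.59 without ΔDMR1-U2 library 3 and -0.07 without ΔDMR1-U2 libraries 1A and 1B together. The coefficient of variation was 31.4% in ΔDMR1-U2, against 13.7% in wild-type, while counting error at the lowest count, 1797, was 2.36%. The ratio of Myom3 to Myom1 counts was 0.0992 ± 0.0251 in ΔDMR1-U2, against 0.122 ± 0.0175 in wild-type (SD, n = 4 each; exact two-sided permutation test p = 0.229, adjusted 0.381). The log2 difference of this ratio was -0.32 with all libraries, -0.17 without ΔDMR1-U2 library 1B and -0.03 without ΔDMR1-U2 libraries 1A and 1B.

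Markers of slow fibres stood lowest in some of the libraries with low Myom3. The summed level of 10 slow fibre markers, all past the filter, was 2561, 2368, 3046 and 2868 CPM in ΔDMR1-U2 libraries 1A, 1B, 2 and 3, against 3111, 3261, 3041 and 2551 CPM in the wild-type libraries. The 3 lowest sums and the 3 lowest Myom3 levels fell in the same libraries, ΔDMR1-U2 1A and 1B and wild-type 3. White adipocyte markers, of which 7 of 8 passed the filter, summed to 309, 772, 265 and 353 CPM in ΔDMR1-U2, against 235, 202, 287 and 249 CPM in wild-type, highest in ΔDMR1-U2 library 1B. The part of either list in the value of Myom3 was not tested.

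Obsl1, on chromosome 1 (75479310 to 75506452, minus strand), had 217, 241, 281 and 315 CPM in ΔDMR1-U2 libraries 1A, 1B, 2 and 3, against 313, 249, 256 and 289 CPM in the wild-type libraries. The ΔDMR1-U2 libraries held both the lowest and the highest of the 8 values. The log2 fold change was -0.07 with a 95% interval of -0.33 to 0.19 (adjusted p = 0.762, edgeR), and it turned to 0.01 without ΔDMR1-U2 library 1A and to 0.11 without ΔDMR1-U2 libraries 1A and 1B. The highest Obsl1 levels were in ΔDMR1-U2 library 3 and wild-type library 1A, which were also the libraries lowest in cartilage and bone markers. All 8 of those markers passed the filter, and their sum was 597, 393, 693 and 46.5 CPM in ΔDMR1-U2, against 63.3, 796, 1378 and 687 CPM in wild-type. The remaining libraries did not keep this order. The lowest Obsl1 level, 217 CPM, stood with a sum of 597 CPM, and the highest sum, 1378 CPM, with 256 CPM of Obsl1. The part of these markers in the value of Obsl1 was not tested.

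**Figure D4:**
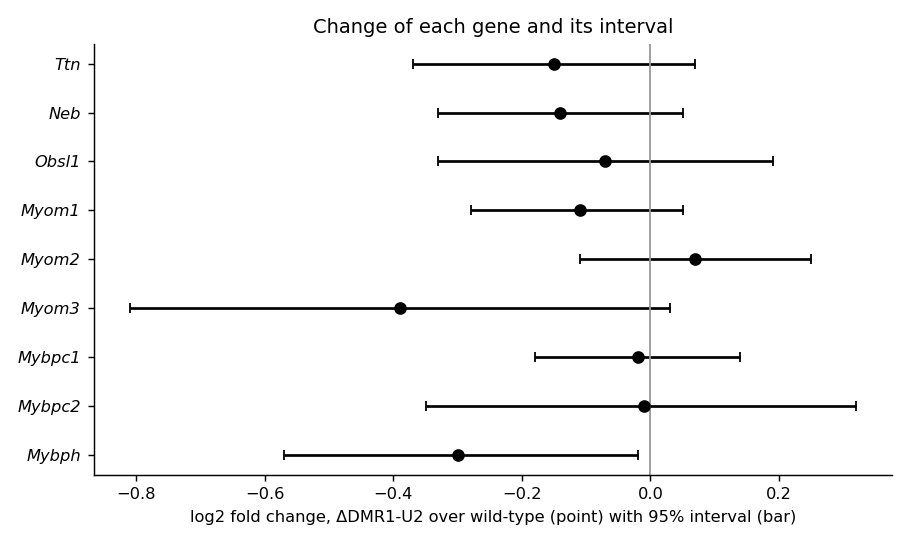
Log2 fold change of ΔDMR1-U2 over wild-type (points) with its 95% interval (bars) for the 9 genes, from the edgeR fit to all 8 libraries. The interval includes 0 for 8 genes, and that of Mybph ends at -0.02 before adjustment over all genes; the narrowest is that of Mybpc1, from -0.18 to 0.14, and the widest that of Myom3, from -0.81 to 0.03.

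Among the myosin-binding proteins, Mybpc1 was the steadiest gene of the group and Mybph had the smallest unadjusted p. Mybpc1, on chromosome 10 (88518279 to 88605152, minus strand), had 4251, 4581, 4384 and 4835 CPM in ΔDMR1-U2 libraries 1A, 1B, 2 and 3, against 4580, 4519, 4718 and 4501 CPM in the wild-type libraries. The highest library was 1.14 times the lowest, the narrowest span of the 9 genes. The log2 fold change was -0.02 with a 95% interval of -0.18 to 0.14 (adjusted p = 0.894, edgeR), which in linear terms is -11.9% to 10.3%.

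Mybpc2, the fast form, on chromosome 7 (44501699 to 44524656, minus strand), had 320, 309, 397 and 305 CPM in ΔDMR1-U2, against 382, 237, 317 and 406 CPM in wild-type. All ΔDMR1-U2 libraries lay inside the wild-type range, and the log2 fold change was -0.01 with a 95% interval of -0.35 to 0.32 (adjusted p = 0.974, edgeR). The ratio of Mybpc2 to Mybpc1 counts was 0.0741 ± 0.012 in ΔDMR1-U2, against 0.0733 ± 0.0169 in wild-type (SD, n = 4 each; exact two-sided permutation test p = 0.83, adjusted also 0.83). The sum of 10 fast fibre markers was 13429, 13679, 13582 and 13327 CPM in ΔDMR1-U2, against 16942, 14900, 15528 and 16370 CPM in wild-type. In wild-type, the libraries with the most Mybpc2, 3 and 1A, also had the highest sums; the 4 ΔDMR1-U2 sums were all below the wild-type ones, which the levels of Mybpc2 were not.

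Mybph, on chromosome 1 (134193448 to 134201232, plus strand), had 53.8, 59.9, 49.3 and 67.9 CPM in ΔDMR1-U2 libraries 1A, 1B, 2 and 3, against 82.3, 59.0, 79.5 and 63.8 CPM in the wild-type libraries. ΔDMR1-U2 libraries 1A and 2 were below every wild-type library, and 1B and 3 were inside the wild-type range. The means were 57.7 ± 8.06 CPM in ΔDMR1-U2 muscle, against 71.2 ± 11.5 CPM in wild-type muscle (SD, n = 4 each). The log2 fold change of Mybph was -0.30, with an SE of 0.13 and a 95% interval of -0.57 to -0.02 (adjusted p = 0.205, edgeR). Its direction was the same in all 8 fits that left out 1 library, at -0.38 to -0.23, and it was -0.28 without ΔDMR1-U2 libraries 1A and 1B, with no adjusted p under 0.166 in the 8 fits. The ratio of Mybph to Mybpc1 counts was 0.0128 ± 0.00116 in ΔDMR1-U2, against 0.0155 ± 0.00228 in wild-type (SD, n = 4 each; exact two-sided permutation test p = 0.0857, adjusted 0.214), a log2 difference of -0.28 with all libraries and -0.29 without ΔDMR1-U2 libraries 1A and 1B. Of the 2329 bases of merged Mybph exon, 1162 are shared with Adora1, an adenosine receptor gene on the opposite strand, and whether counting used strand was not given in the sources used here. Adora1 itself had 5.41, 5.65, 4.71 and 5.87 CPM in ΔDMR1-U2 libraries 1A, 1B, 2 and 3, against 6.42, 4.9, 6.05 and 4.84 CPM in the wild-type libraries. Like Mybph, it was lowest in library 2 and highest in library 3 of ΔDMR1-U2, and highest in library 1A of wild-type. In wild-type, Adora1 was lowest in library 3 and Mybph in library 1B. The part of shared reads in either gene was not tested.

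**Figure D5:**
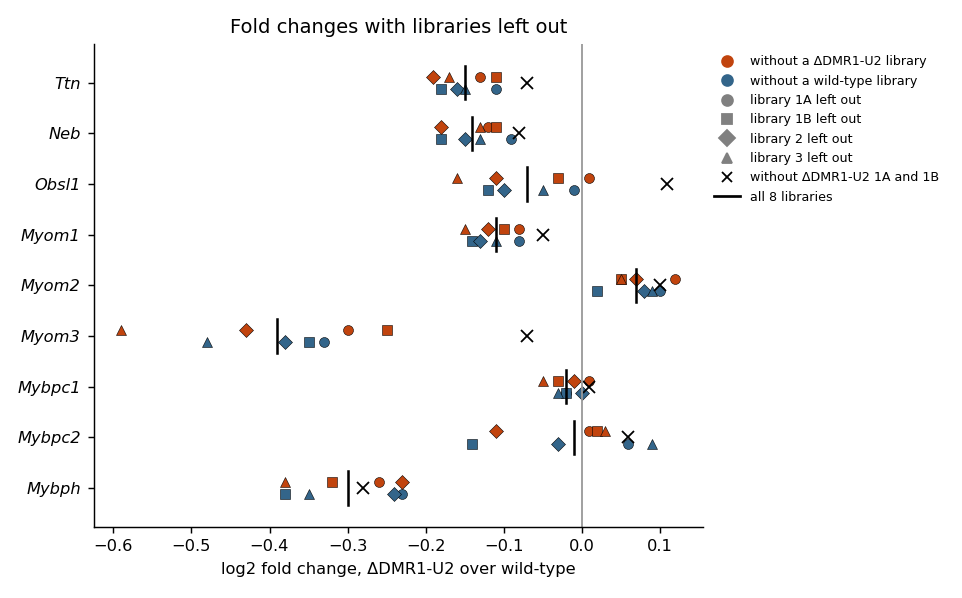
Log2 fold change of ΔDMR1-U2 over wild-type for the 9 genes with all 8 libraries (short vertical lines), with 1 library left out (orange where it was a ΔDMR1-U2 library, blue where it was a wild-type library, the shape giving its number) and without ΔDMR1-U2 libraries 1A and 1B (crosses). Ttn, Neb, Myom1, Myom3 and Mybph stay below 0 and Myom2 stays above 0 in every such fit, and Myom3 spans -0.59 to -0.07.

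The partners of these proteins in the sarcomere were taken from 5 lists chosen by known role, though with earlier results of these data known. Of 79 tested partner genes, 2 were called lower and 0 higher by edgeR, or 2.53%, against 1.13% of all tested genes (0.617% lower and 0.512% higher). Further, 30 of 79 had an unadjusted p under 0.05 (38%, against 21.3%), 20 lower and 10 higher. DESeq2 called 10 lower and 1 higher, where it called 6.15% of the genes to which it gave an adjusted p, 503 lower and 427 higher. The median log2 fold change over the 79 genes was -0.13, and 70.9% of them had a value below 0, against 50.2% of all tested genes. Where groups are said below not to overlap, this was also so for 12.8% of all tested genes. Partners whose groups did not overlap were found in both directions.

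Capn3, the muscle calpain that is anchored on titin, was the called gene among 22 partners of titin at the Z-disc and I-band. Its level was 69.0, 48.3, 79.7 and 59.7 CPM in ΔDMR1-U2 libraries 1A, 1B, 2 and 3, against 118, 100, 103 and 111 CPM in the wild-type libraries. All ΔDMR1-U2 libraries were below all wild-type libraries, and Capn3 fell by 0.75 (log2), with an SE of 0.13 (adjusted p = 0.0301, edgeR). Part of its exon sequence, 386 bases, is shared with Ganc on the same strand. The other 21 genes of the list were not called by edgeR, and its median was -0.09. DESeq2 also called Pdlim5, which was higher (adjusted p = 0.0391, DESeq2). The most abundant, Fhl1, a LIM-domain protein, and Flnc, filamin C, had log2 fold changes of -0.04 and -0.11.

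Tmod1, which caps the pointed end of the thin filament near the end of nebulin, was the called gene among 15 tested thin filament partners. It had 101, 84.9, 101 and 96.4 CPM in ΔDMR1-U2 libraries, against 140, 126, 135 and 125 CPM in the wild-type libraries. The groups did not overlap, and Tmod1 fell by 0.45 (log2), with an SE of 0.07 (adjusted p = 0.0301, edgeR). It shares 1287 bases of exon with Tstd2 on the opposite strand. The other 14 genes were not called by edgeR, and the median was -0.24. DESeq2 also called Actc1, Tpm1, Tpm2 and Lmod3, all lower. The most abundant, Acta1, skeletal actin, and Tpm2, beta-tropomyosin, had log2 fold changes of -0.18 and -0.29. Their DESeq2 adjusted p-values were 0.364 and 0.00393, and the groups did not overlap for Tpm2. Each of Capn3 and Tmod1 kept its call in 3 of the 8 fits that left out 1 library, those without ΔDMR1-U2 library 1A, 1B or 2. The adjusted p over the 8 fits ran from 0.0126 to 0.108 for Capn3 and from 0.0198 to 0.108 for Tmod1 (edgeR). The log2 fold changes in these fits were -0.87 to -0.64 for Capn3 and -0.48 to -0.40 for Tmod1. Without ΔDMR1-U2 libraries 1A and 1B together they were -0.63 and -0.41, with adjusted p = 0.0749 and 0.0754 (edgeR).

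In the other 3 lists no gene was called by edgeR, and the counts of unadjusted p under 0.05 stand beside a share of 21.3% over all tested genes. Of 17 M-band and titin kinase partners, 5 had an unadjusted p under 0.05, with a median log2 fold change of -0.06; Ckm, the muscle creatine kinase that docks at the M-band, had -0.22, with 4718 ± 417 CPM in ΔDMR1-U2, against 5507 ± 1008 CPM in wild-type muscle (SD, n = 4 each). Of 15 tested thick filament myosin genes, 7 were under 0.05 unadjusted, 6 of them lower, with a median of -0.21, against -0.11 for the 9 genes of titin, nebulin and the M-band. The most abundant, Myh8, the perinatal heavy chain, and Mylpf, the fast regulatory light chain, had -0.14 and -0.33. Their DESeq2 adjusted p-values were 0.39 and 0.0065, and the groups did not overlap for Mylpf. DESeq2 called Mylpf, Myh3 and Myh4 of this list and Ank1 of the M-band list, all lower. The summed CPM of the myosin list was 39607 to 42299 in ΔDMR1-U2, against 43440 to 50161 in wild-type. Of 10 splicing regulators of muscle, among them Rbm20, which acts on the titin transcript, 2 were under 0.05 unadjusted, both higher, and the median was -0.08; Rbfox2 had -0.13 and Mbnl2 0.20.

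Over the 8 libraries, the genes outside the group whose centred log2 CPM profiles were closest to that of Ttn were Fam53b, Wdr8 and Sel1l3, with root mean square differences of 0.028, 0.032 and 0.034. For Mybpc1, whose own profile varied by 0.054, they included Hnrnpul1 and Rcor1, each at 0.027. For Mybpc2, which varied by 0.239, they were H1fx, Vav1 and Fuk, at 0.084, 0.098 and 0.109. For Mybph, which also varied by 0.239, they included Mir299 and Evpl, at 0.077 and 0.080. For Myom2, which varied by 0.098, they were Ehmt2, Zfp46 and Rab4a, at 0.032, 0.033 and 0.035. These distances describe 8 libraries shared by all genes, and the nearest of 15241 genes were chosen by them.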

How the data were processed

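The labels name 8 libraries of total RNA, 4 per genotype. Per the submitters' processing notes, the build was mm10 and the tools DESeq2 1.4.5, HTSeq 0.5.4p3, TopHat2 2.0.9, Bowtie2 2.1.0 and FastQC 0.10.1; settings, annotation and the handling of reads that map to repeats within Ttn and Neb were not given in the sources used here. Per the file headers, the deposited table holds raw counts per gene and library, the authors' mean normalised counts (a signal), their fold of wild-type over ΔDMR1-U2 (a ratio), its log2, and their p-value and adjusted p-value; of these the raw counts were used. 0 count columns were left without a sample.

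Counts were fitted with edgeR 4.0.16 in R 4.3.3: filterByExpr at a minimum count of 10, trimmed mean of M values scaling, quasi-likelihood test, Benjamini-Hochberg over 15241 genes and a threshold of 0.05. DESeq2 1.42.0 was an alternative. Standard errors and 95% intervals come from the fitted test. Positions and merged exon lengths are from GENCODE vM21 (mm10), promoters from RefSeq (GRCm38.p6). The fit was tested on simulated data with 1 common spread for all genes, where it called 66% of 1.5-fold and 96% of 2-fold changes. Changes under 1.5-fold were not simulated, and those of the 9 genes, at folds of 0.765 to 1.05, were smaller. The biological coefficient of variation was 12.3%. The ratio tests permute the 4 and 4 libraries in all 70 ways. The genes and lists were chosen with earlier results of these data known. The text names the 9 genes, called partners, the 2 most abundant of each list and the 3 nearest profiles of 5 genes, apart from some results that are not reported here. Profiles use log2(CPM + 0.5).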

Additional observations from a re-analysis of the deposited data

Results flagged for a closer look

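Among 32 groups of 4 libraries examined (the 9 genes, Capn3, Tmod1 and the 5 ratios in each genotype), 1 held a library far from the others, where chance gives about 1 in 20. Mybpc2 was at 397 CPM in ΔDMR1-U2 library 2, against 305 to 320 CPM in the other ΔDMR1-U2 libraries. Without that library the log2 fold change of Mybpc2 was -0.11, against -0.01 with it, and neither was called by edgeR.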

How the results depend on the processing

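None of the 9 genes was called under any alternative: DESeq2 size factors, no filter on low counts, the DESeq2 test, library sizes without Ttn, the replicate block, leaving out each library, or leaving out ΔDMR1-U2 libraries 1A and 1B together. Over all genes, against 78 genes higher and 94 lower, DESeq2 called 427 and 503, the replicate block 3 and 10, and the fit without ΔDMR1-U2 libraries 1A and 1B 11 and 5. Leaving out 1 library gave 4 to 294 higher and 3 to 337 lower. Partner genes called were 1 higher and 10 lower in DESeq2, 0 lower with the replicate block and 0 lower without both libraries, and 0 to 1 higher and 0 to 7 lower when 1 library was left out; the causes were not tested. Same-numbered libraries of the 2 genotypes deviated from their group means with correlations of -0.22, -0.18, -0.08 and -0.08. Of the 8 libraries, 0 matched best with their own number. No pairing by number was seen in these values, which cannot show whether the samples were paired by design. With the block, Capn3 and Tmod1 had log2 fold changes of -0.77 and -0.45 with adjusted p = 0.0632 and 0.0633 (edgeR).

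Directions turned for the following values, none of them called. Obsl1 was -0.16 to 0.01 with 1 library left out and 0.11 without ΔDMR1-U2 libraries 1A and 1B. Mybpc1 was -0.05 to 0.01, and 0.01 without both. Mybpc2 was -0.14 to 0.09, 0.06 without both and 0.01 with the block. The log2 difference of Mybpc2/Mybpc1 was -0.12 to 0.14 and 0.07 without both, and that of Neb/Ttn -0.00 to 0.03 and -0.01 without both. The lowest count of the 9 genes was 827, for Mybph, a counting error of 3.48%, against coefficients of variation of 14% in ΔDMR1-U2 and 16.1% in wild-type for that gene.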

Other observations

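Of the counts in each library, the 9 genes together took 13.3% ± 0.717 in ΔDMR1-U2, against 14.2% ± 0.585 in wild-type (SD, n = 4 each). Leaving out Ttn, the other 8 genes took 2.00% ± 0.0634 in ΔDMR1-U2, against 2.07% ± 0.0814 in wild-type (SD, n = 4 each). The summed levels of the marker lists not given above overlapped between the genotypes. They were 159 to 181 CPM in ΔDMR1-U2 against 140 to 187 CPM in wild-type for cardiomyocytes, and 2039 to 2556 CPM in ΔDMR1-U2 against 2111 to 2669 CPM in wild-type for smooth muscle. They were 18278 to 23320 CPM in ΔDMR1-U2 against 21431 to 29940 CPM in wild-type for fibroblasts and tendon, and 501 to 559 CPM in ΔDMR1-U2 against 523 to 563 CPM in wild-type for endothelium. They were 356 to 477 CPM in ΔDMR1-U2 against 303 to 415 CPM in wild-type for immune cells, and 267 to 368 CPM in ΔDMR1-U2 against 323 to 412 CPM in wild-type for satellite cells.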
